A study of Mus musculus with 3 samples.

Results

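The mouse major histocompatibility complex, called H2, lies on chromosome 17. Here it is described as the intervals of a list of open-chromatin candidates whose midpoints fall in 33.80 to 35.55 Mb (the proximal part) or 35.75 to 37.50 Mb (the distal part) of the mm9 build. The 200 kb window between the parts, which holds the pluripotency gene Pou5f1, was left out. The rule uses position alone and no measured value. It selected 1442 of the 348759 intervals of the list, or 0.413%. They made up 8.90% of the intervals of chromosome 17, of which the complex takes up 3.79% of the span.

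FAIRE-seq isolates DNA that formaldehyde links only weakly to protein, and so favours stretches with few nucleosomes. It was applied to wild-type mouse embryonic stem cells of a mixed 129Sv-C57Bl/6 strain background. The 3 samples were an input library of genomic DNA, FAIRE DNA after 16 h in DMSO, the solvent control, and FAIRE DNA after 16 h in 500 nM ICRF-193, an inhibitor of topoisomerase II. The cells were grown without feeders. Each FAIRE sample's title joins replicates 1 and 2, and the list is a single pooled list that ties no interval to a sample, so no value below compares the treatments and no test between groups was possible. The depth behind the intervals is unknown, and an interval is the authors' potential peak, not a tested site.

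The complex is known for the genes that present peptides to T cells. Class I genes (H2-K, H2-D, H2-Q, H2-T and H2-M) encode heavy chains that present peptides from inside the cell or have more specialised roles, and class II genes (such as H2-Aa, H2-Ab1 and H2-Eb1) encode chains that professional antigen-presenting cells use for peptides taken up from outside. Class III lies between the class II genes and H2-D. It holds complement genes (C2, Cfb, C4b), heat shock genes (Hspa1a, Hspa1b), the cytokine genes Tnf, Lta and Ltb, and many genes that most cells use. Classical class I expression is known to be low in embryonic stem cells, and class II genes are best known from immune cells.

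The RefSeq gene table of assembly GRCm38.p6 gives the order of the genes, and only names and order were taken from it because its build differs from that of the list. From the centromere it lists 9 protein-coding genes from Daxx, a histone chaperone gene, to Vps52, then 25 from H2-K1 to Btnl6, which include the class II genes, the peptide transporter genes Tap1 and Tap2, and Brd2. These are followed by 57 from Notch4 to Ddx39b (class III) and 7 from H2-D1 to H2-Q10, all of them H2 genes. Beyond Pou5f1 come 25 framework genes from Tcf19 to Gnl1, none of them an H2 gene. The last group is 35 genes from H2-T24 to Gabbr1, of which 15 are H2 genes and 6 are Trim genes. The 36 bins of the complex were divided into 6 stretches after this order. Genes listed next to Pou5f1 may lie in the left-out window, so a stretch need not hold every gene of its group. The borders were set to the nearest 100 kb from general knowledge of the map and not from an mm9 annotation, so the names of the stretches are approximate and no interval is assigned to a gene.

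Intervals were more frequent in the complex than over the autosomes, at 41.2 per 100 kb (exact 95% Poisson interval 39.1 to 43.4) against 14.2 over the autosomes outside it, a ratio of 2.89. The Poisson and Clopper-Pearson intervals here and below cover counting error only, and they are too narrow because intervals cluster. Chromosome 17 outside the complex had 16.6 per 100 kb, so the ratio to its own chromosome was 2.48. The median of the 34 full 100 kb bins of the complex was 31 intervals (interquartile range 13 to 62.5), against a median of 6 (1 to 18) over 24161 autosomal bins. In units of that median bin, the density of the whole complex was 6.87. That figure sets a mean against a median, and all autosomes together come to 2.38 on the same scale.

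Most bins of the complex were dense, defined as at least 12 intervals, which is 2 times the median autosomal bin. Of the 34 full bins 26 were dense (76.5%), against 35.2% of autosomal bins. The very dense bins, with at least 39 intervals (the 90th percentile of autosomal bins), numbered 13 (38.2%), against 10.2% of autosomal bins. At least 100 intervals were found in 2 bins (5.88%), against 1.07%. The 1 bin with no interval, at 36.70 to 36.80 Mb, made up 2.94%, against 15.4% of autosomal bins. At least 1 high-score interval, meaning one in the top 10% of the list by score, lay in 30 bins (88.2%), against 49.4%. Neighbouring bins share local sequence and gene content, so these shares describe 1 stretch of chromosome and were not tested.

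**Figure D1:**
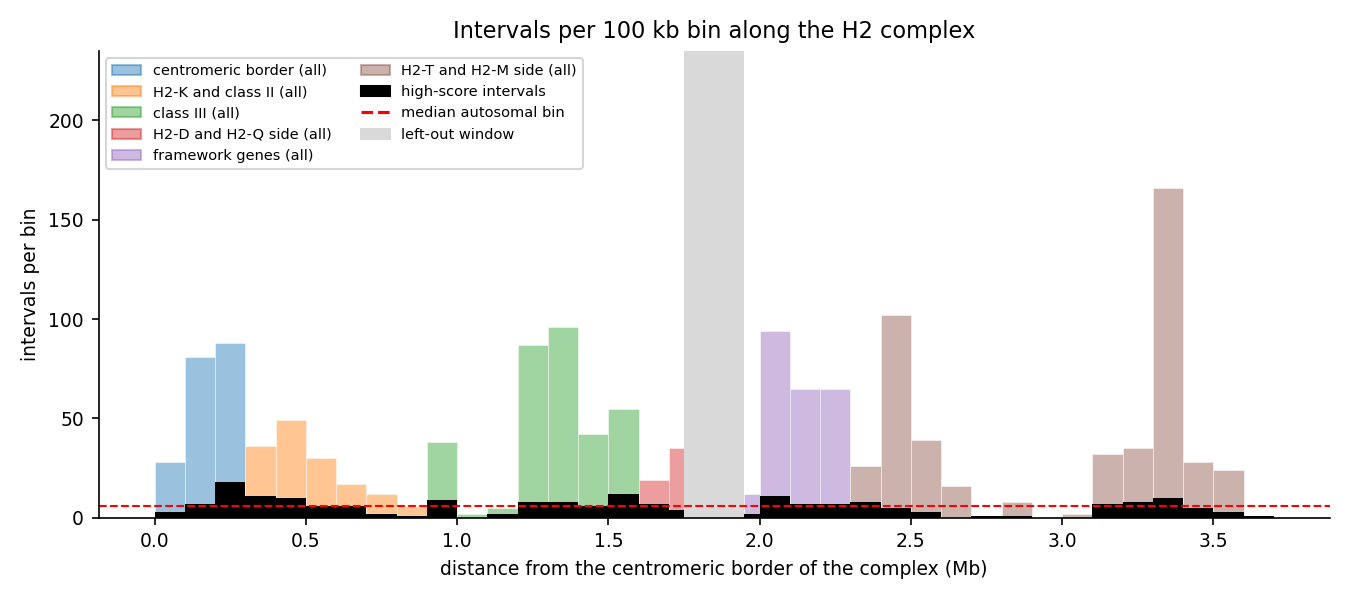
Number of intervals per bin (vertical axis) along the H2 complex (horizontal axis, distance from its centromeric border in Mb), with all intervals in colour by stretch and high-score intervals in black. Counts range from 0 to 166 per 100 kb bin, most bars stand above the dashed line of the median autosomal bin (6 intervals), and the bar on either side of the grey left-out window stands for 50 kb.

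**Figure D2:**
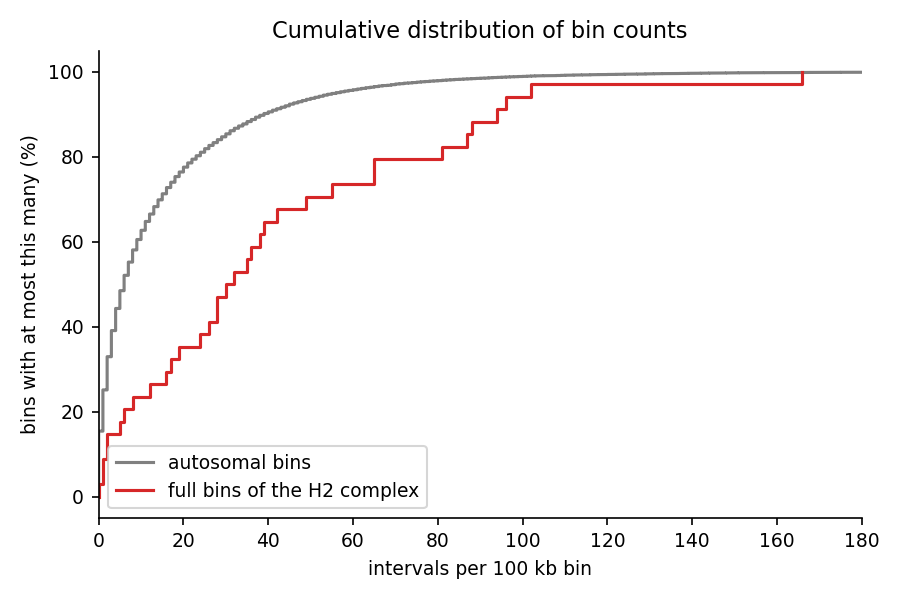
Percentage of bins (vertical axis) with at most a given number of intervals (horizontal axis) for 34 full bins of the H2 complex and 24161 autosomal bins. The curve of the complex lies to the right of the autosomal curve, with medians of 31 and 6 intervals.

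The 2 parts of the complex differed in density by less than counting error. The proximal part held 726 intervals (41.5 per 100 kb, 38.5 to 44.6) and the distal part 716 (40.9, 38.0 to 44.0). Among 1401 other autosomal windows of the same length (1.75 Mb), 4.14% held at least as many intervals as the proximal part and 4.28% at least as many as the distal part, with a median of 178. High-score intervals numbered 120 in the proximal part (16.5% of its intervals, exact 95% Clopper-Pearson interval 13.9 to 19.4) and 79 in the distal part (11.0%, 8.83 to 13.6). The 2 fullest bins of the complex, both distal, held 268 of the 716 intervals of that part, of which 15 scored high (5.60%). They lower the distal share, and the difference between the parts was not tested. Very dense bins numbered 7 in the proximal part and 6 in the distal part.

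Beyond the telomeric border intervals were rare. The 1.75 Mb there held 39 intervals, or 2.23 per 100 kb (1.58 to 3.05), so the complex was 18.5 times as dense as its telomeric flank. The gene table lists a run of olfactory receptor genes (Olfr90, Olfr91 and others), which serve the sense of smell, next to Gabbr1 on that side. On the centromeric side the flank of the same length held 450 intervals, or 25.7 per 100 kb, and the complex was 1.60 times as dense. The left-out window stood above both parts, with 224 intervals in 200 kb, or 112 per 100 kb (97.8 to 128), and 16.3% of its bases covered.

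Intervals covered 5.33% of the bases of the complex, 186 kb in all, against 1.63% of the autosomes outside it. Members had a median width of 49.5 bp, with quartiles at 7 and 194 bp, against 41 bp over the autosomes. Of the members 24.5% (exact 95% Clopper-Pearson interval 22.3 to 26.8) were wide, at 200 bp or more, against 20.1% of the list. Intervals of at most 10 bp made up 32.7% (30.3 to 35.2), against 30.8% of the list. The share of wide intervals was thus above that of the list, while the interval of the narrow share includes it. The median score, 0.0138, was close to that of the list, 0.0137, and most intervals lay near the lowest score of 0.0129.

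High-score intervals were more frequent than in the list as a whole. They numbered 199, or 13.8% of the intervals of the complex (12.1 to 15.7), against 10.0% of the list. Per length, the complex had 5.69 high-score intervals per 100 kb, 4.02 times the density of the autosomes outside it. The top 1% of the list by score held 23 of the 1442 intervals, or 1.60% (1.01 to 2.38). Of these 23, the H2-T and H2-M side held 7 (of its 480 intervals), the framework stretch 5 (of 236) and the centromeric border 4 (of 197). Class III held 4 (of 325) and the H2-K and class II stretch 3 (of 150). That leaves none for the H2-D and H2-Q side, which had only 54 intervals.

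The 6 stretches differed in how many intervals they held. The framework stretch, 35.75 to 36.10 Mb, was the densest with 236 intervals, or 67.4 per 100 kb (59.1 to 76.6). The centromeric border, 33.80 to 34.10 Mb, followed with 197 intervals, or 65.7 per 100 kb (56.8 to 75.5), and these neighbours in the order do not differ beyond counting error. The class III stretch, 34.70 to 35.40 Mb, held 325 intervals, or 46.4 per 100 kb (41.5 to 51.8). The H2-D and H2-Q side, 35.40 to 35.55 Mb, held 54 intervals, or 36 per 100 kb (27 to 47), and the H2-T and H2-M side, 36.10 to 37.50 Mb, held 480, or 34.3 per 100 kb (31.3 to 37.5). Those intervals overlap, so their order is not determined. The H2-K and class II stretch, 34.10 to 34.70 Mb, was the sparsest with 150 intervals, or 25 per 100 kb (21.2 to 29.3). Even so it lay above the autosomal mean of 14.3 per 100 kb.

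The densities of the stretches rest in part on single bins, and their order in part on where the borders lie. Without its fullest bin, the H2-T and H2-M side had 24.2 intervals per 100 kb (21.6 to 27.0). The 25 per 100 kb of the H2-K and class II stretch includes its own fullest bin, with 49 intervals, so these 2 values do not settle their order. With every border moved 1 bin towards the centromere, the H2-K and class II stretch took up the full bin of the border and reached 6.44 times the median autosomal bin, against 4.17.

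The H2-K and class II stretch had few intervals, but a large share of them scored high. High-score intervals numbered 36 of its 150, or 24.0% (17.4 to 31.6), the highest share of the 6 stretches, and 32.7% of its intervals were at least 200 bp wide. The H2-D and H2-Q side was next with 11 of 54 (20.4%, 10.6 to 33.5). The centromeric border had 28 of 197 (14.2%, 9.66 to 19.9) and class III 45 of 325 (13.8%, 10.3 to 18.1). The framework stretch had 27 of 236 (11.4%, 7.68 to 16.2) and the H2-T and H2-M side 52 of 480 (10.8%, 8.20 to 14.0), both close to the 10.0% of the list. The 2 fullest bins of the complex, both on the H2-T and H2-M side, held 268 of its 480 intervals, of which 15 scored high (5.60%). The share of this stretch thus rests largely on those bins and does not describe its other bins. Per length the order was different: the centromeric border had 9.33 high-score intervals per 100 kb, the framework stretch 7.71, the H2-D and H2-Q side 7.33, class III 6.43, the H2-K and class II stretch 6.00 and the H2-T and H2-M side 3.71. The H2-K and class II stretch was thus the fifth of 6 by this measure.

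**Figure D3:**
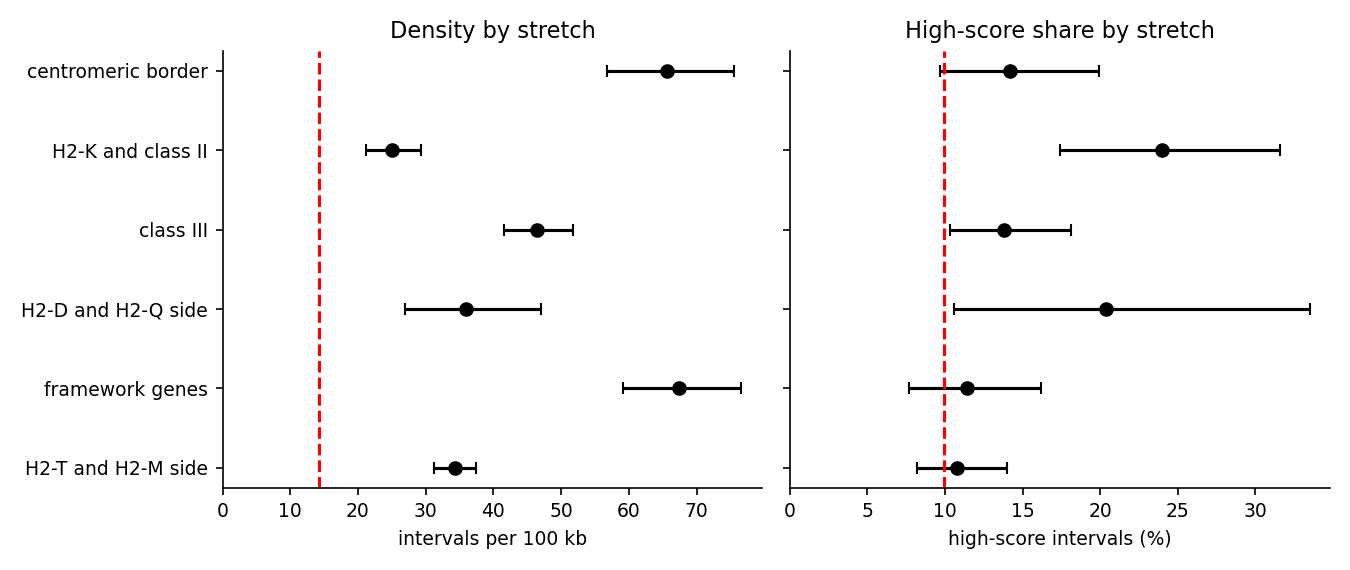
Interval density per 100 kb with exact 95% Poisson intervals (left) and percentage of high-score intervals with exact 95% Clopper-Pearson intervals (right) for the 6 stretches (vertical axis, centromere to telomere), with the autosomal values as dashed lines. The H2-K and class II stretch has the lowest density (25 per 100 kb) and the highest high-score share (24.0%).

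Along the centromeric border, counts rose from 28 intervals in the bin at 33.80 Mb to 81 at 33.90 Mb and 88 at 34.00 Mb. The last of these was the fifth fullest bin of the complex and also the bin with the most high-score intervals, 18, with 13.3% of its bases covered. Through the H2-K and class II stretch the count then fell in steps, from 36 and 49 intervals in the bins at 34.10 and 34.20 Mb to 30, 17, 12 and 6 in the bins from 34.30 to 34.60 Mb. The last bin of this series stood at the autosomal median. High-score intervals in these 6 bins numbered 11, 10, 6, 6, 2 and 1. The second longest stretch of the complex without an interval, 71.9 kb at chr17:34576916-34648816, lay at the end of this decline.

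The class III stretch was uneven. Its first bin, at 34.70 Mb, held 38 intervals, but the bins at 34.80 and 34.90 Mb held 2 and 5, below the autosomal median of 6. The bins at 35.00 and 35.10 Mb then held 87 and 96, with 12.9% and 10.6% of bases covered, and those at 35.20 and 35.30 Mb held 42 and 55. Within the bin at 35.10 Mb, 43 of the 96 intervals lay in the 20 kb from 35180001 to 35200000, and 0.166% of autosomal 20 kb pieces held at least as many. The H2-D and H2-Q side began with 19 intervals in the bin at 35.40 Mb, of which 7 scored high, and held 35 in the 50 kb that end at the left-out window.

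On the far side of the window, the first 50 kb held 12 intervals and the following framework bins, 3 in number from 35.80 Mb on, held 94, 65 and 65. Between 96.4% and 98.7% of autosomal bins held fewer. The bin at 36.10 Mb dropped to 26 intervals, but 8 of them scored high. The bin at 36.20 Mb held 102, the second fullest of the complex, with only 5 high-score intervals.

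The bins at 36.30 and 36.40 Mb held 39 and 16 intervals, both dense. Of the next 4 bins, up to 36.90 Mb, those at 36.50, 36.70 and 36.80 Mb held 1, 0 and 2 intervals, below the autosomal median of 6, and the one at 36.60 Mb held 8, just above it. These 4 bins had 2 high-score intervals in all. The longest stretch without an interval, 182 kb at chr17:36681580-36863111, lay here, as did the third longest, 65.6 kb at chr17:36555610-36621186. In the order of the gene table, the H2-M10 genes and their neighbours, specialised class I genes, lie between Trim39 and Trim26 on this side of the complex, but no bin was matched to them. Whether reads could be aligned here was not tested, so the missing intervals are not a measure of closed chromatin.

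Counts returned towards the telomeric end. The bins at 36.90 and 37.00 Mb held 32 and 35 intervals, with 7 and 8 of high score. The bin at 37.10 Mb was the fullest of the complex, with 166 intervals covering 19.1% of its bases, and 99.9% of autosomal bins held fewer. Of its intervals 10 scored high (6.02%) and 43.4% were at most 10 bp wide. The 20 kb from 37120001 to 37140000 alone held 58 intervals, a count reached by 0.0232% of autosomal 20 kb pieces. Whether reads of repeated sequence gave the counts of this bin was not tested. The bins at 37.20 and 37.30 Mb held 28 and 24, and the last, at 37.40 Mb, held 1, so that the drop to the sparse flank began inside the complex.

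The fullest bins were not those with the highest share of high scores. In the 2 bins with at least 100 intervals, 15 of 268 intervals scored high, or 5.60% (3.17 to 9.06), against 8.71% in 255 autosomal bins as full. In the 11 bins with 39 to 99 intervals the share was 12.7% (10.5 to 15.3), against 9.33%. In the 13 bins with 12 to 38 intervals it was 22% (17.7 to 26.8), against 10.3% in 6024 such autosomal bins. Pooled shares above those of autosomal bins as full were thus found in the bins with 12 to 99 intervals, and not in the fullest. Single bins ranged from 0 to 36.8% among those with 12 to 38 intervals and from 7.69% to 21.8% among those with 39 to 99. Not every bin of these classes was therefore above the autosomal share. The 7 bins with 1 to 11 intervals held 25 intervals, 6 of high score, too few to set against the autosomal 11.1% (24.0%, 9.36 to 45.1). Across the 33 full bins with an interval, the number of high-score intervals rose with the number of all intervals (Spearman's rho = 0.77, against 0.74 over 20435 autosomal bins), a description in which the first number is part of the second. The high-score share of a bin, with each bin counted equally, had a rho of -0.34 with the number of all intervals in the complex. Over the autosomal bins this rho was 0.34, although their pooled share fell from 11.1% in the least full class to 8.71% in the fullest. Equal counting gives much weight to nearly empty bins. In the complex, those at 36.50 and 37.40 Mb held 1 interval each (100%) and those at 34.80 and 36.80 Mb held 2 each (0%). The rho values are therefore not read as opposite trends, and their difference was not tested.

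**Figure D4:**
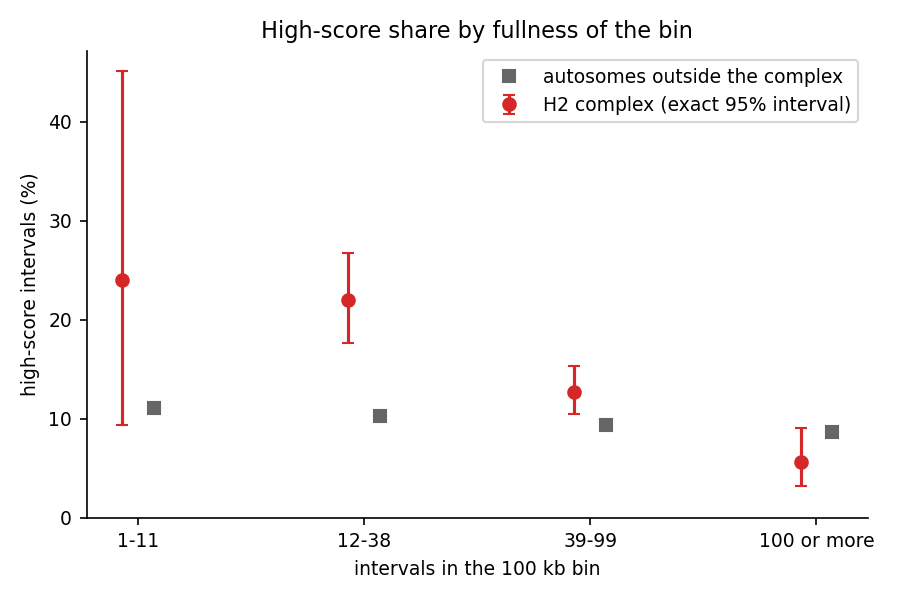
Percentage of high-score intervals (vertical axis) in 100 kb bins grouped by their number of intervals (horizontal axis) for the H2 complex, with exact 95% Clopper-Pearson intervals, and for the autosomes outside it. Pooled over its bins, the complex is above the autosomes in bins with 12 to 38 intervals (22% against 10.3%) and at 5.60% against 8.71% in bins with 100 or more.

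A few bins carried much of the total. The 2 fullest bins held 18.6% of the intervals of the complex, the 5 fullest 37.9% and the 13 very dense bins 71.4%. On a finer scale, 36 of 174 pieces of 20 kb (20.7%) had no interval, against 48.9% of autosomal pieces.

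The highest score of the complex was 0.338, 24.7 times the median score of the list, at chr17:36621376-36622120 (745 bp). It ranked 92 among all intervals of the list and stood far above the next member. It lay in a bin with 8 intervals, at the edge of the third longest stretch without an interval. Whether reads of repeated sequence gave this score was not tested.

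The other members of highest score formed a close series. The second, at chr17:34740393-34741416 in the class III stretch, scored 0.0842 over 1024 bp, with its nearest neighbours 10.4 kb and 1.04 kb away. The third, at chr17:33897194-33897813 in the centromeric border, scored 0.0788 over 620 bp. Both fell within the top 0.131% of the list. The next 7 scored between 0.0544 and 0.0620, which placed them in the top 0.454%. Of those 7, the H2-K and class II stretch held those at chr17:34216525-34216961 and chr17:34272143-34272729, and the centromeric border the one at chr17:34092476-34093080. Class III held those at chr17:35301791-35302610 and chr17:35089313-35090511. The framework stretch held those at chr17:36055766-36056284 and chr17:35810538-35810961. The 10 highest were thus spread over 5 of the 6 stretches, with none on the H2-D and H2-Q side, which holds only 54 of the 1442 intervals.

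**Figure D5:**
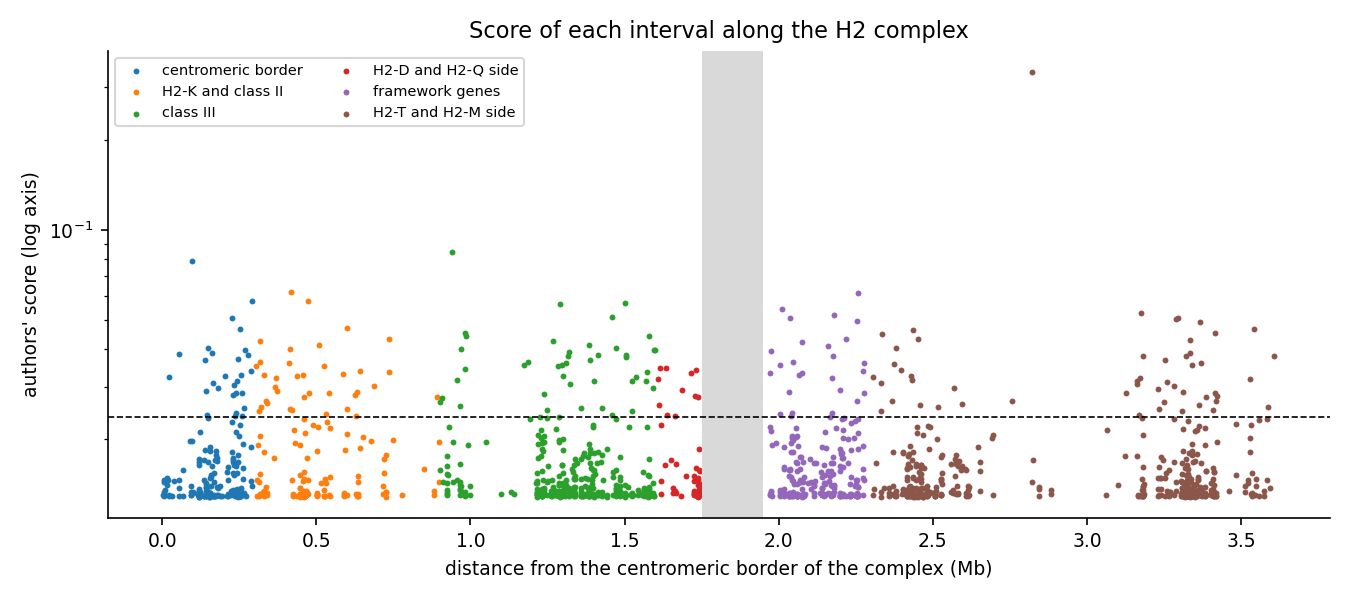
Authors' score of each of the 1442 intervals (vertical axis, log scale) against the distance from the centromeric border of the complex (horizontal axis, Mb), coloured by stretch, with the lowest high-score value as a dashed line. A single interval at 0.338 stands above the rest, which do not exceed 0.0842, and the grey band is the left-out window.

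The 5 widest intervals were mostly not among the 10 highest in score, but all 5 fell within the top 5.94% of the list by score. The first and second widest, 1444 bp at chr17:37118719-37120162 and 1254 bp at chr17:37109946-37111199, both lay in the fullest bin, with scores of 0.0380 and 0.0287. The next lay in class III, 1199 bp at chr17:35089313-35090511 and 1131 bp at chr17:35188100-35189230, and in the framework stretch, 1127 bp at chr17:35834492-35835618. Of these 5, the first of class III was also among the 10 highest scores.

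Neighbouring intervals lay close together. The median distance between neighbouring midpoints was 387 bp in the complex, 414 bp in the proximal and 358 bp in the distal part, against 525.5 bp over the autosomes. Gaps of at most 20 bp made up 35.3% of the gaps in the complex and 34.1% over the autosomes, so the closest spacing was about as frequent as elsewhere. Gaps over 50 kb numbered 5 of 1440 in the complex and 10216 of 344766 over the autosomes. After joining intervals within 500 bp of each other, 563 regions remained with a median span of 259 bp, against 166 bp in the list. Regions of a single interval made up 44.4% in the complex and 51.5% in the list.

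The joined regions with the most covered bases were in the fullest bin and in the framework stretch. The region chr17:37109017-37113207 held 20 intervals that covered 3249 of its 4191 bp (77.5%), although its highest score was 0.0287. The region chr17:36052127-36057389 of the framework stretch held 18 intervals that covered 3197 of 5263 bp (60.7%), and it contains the interval of score 0.0617 above. The fullest bin also held chr17:37163325-37166391 (2293 bp covered) and chr17:37117987-37120639 (2286 bp covered). The fifth, chr17:35973018-35976428 (2212 bp covered), was again in the framework stretch. Of these 5 regions 3 thus lay in 1 bin of the H2-T and H2-M side and 2 among the framework bins.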

How the data were processed

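Per the labels' protocols, libraries of FAIRE DNA from mouse embryonic stem cells followed a ChIP-type Illumina preparation. Bowtie (no version) and build mm9 come from the submitters' processing notes. The name of the deposited list names F-Seq, which smooths reads into a density and lists intervals above a threshold. Program settings, filters on reads, any role of the input and the contributing samples were not given in the sources used here. Each interval's score is the authors' deposited value, of unstated scale, used only to rank and describe intervals. Other deposited values are interval starts and ends.

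Starts were converted to count from 1. Intervals were assigned to 100 kb bins by midpoint, coverage was clipped at bin edges, and autosomal bins ran from each chromosome's first to last interval. The 50 kb bins beside the left-out window were left out of bin counts. Python 3.11.15, pandas 2.3.3, numpy 2.4.6, scipy 1.17.1 and matplotlib 3.10.9 were used. The density in units of the median bin, the high-score share and the joining of intervals were tested on simulated intervals without the clustering of the list. The other procedures were not tested in this way. Members, stretches, named regions (5 fullest and emptiest bins, 10 highest scores, 5 widest, 5 joined regions, 3 longest gaps) and thresholds were chosen with earlier results of these data known. No DMSO against ICRF-193 comparison and no promoter count was made, because the list separates no samples and no mm9 genome or annotation was used.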

Additional observations from a re-analysis of the deposited data

How the results depend on the processing

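The density of the complex in units of the median autosomal bin (6.87) was 4.02 after joining intervals within 500 bp, 10.1 for intervals of at least 200 bp, 5.15 against bins with an interval, 8.24 without the densest twentieth of reference bins, 6.34 with 200 kb bins and 7.50 with the left-out window. Alternatives added after seeing the data gave 2.89 in units of the mean autosomal bin and 6.25 without the fullest bin. Coverage (5.33%) was 2.53% in the top 10% by score, 3.87% for wide intervals and 5.92% with the window. The high-score share (13.8%) was 31.8% after joining, where a region takes its highest score, and 56.4% for wide intervals. The shares of the whole list under the same settings are not given, so these values cannot be set against its 10.0%. Neighbour distance (387 bp) was 1308 bp at or above the median score, 7465 bp in the top 10%, 2863 bp after joining and 3664 bp for wide intervals, all by construction from fewer intervals. Bins with no interval (1) numbered 4 in the top 10% and 3 for wide intervals. The count of 26 dense bins was 25 to 27. The ratio of the densest to the sparsest stretch (2.70) was 2.03 after joining and 1.89 with borders moved towards the centromere. The framework stretch or the centromeric border was densest in each alternative run, and the H2-K and class II stretch or the H2-T and H2-M side sparsest. The median autosomal bin holds no top-10% interval, so density and dense bins had no value there. No paired analysis was possible because the list separates no samples. The overlap of DMSO and ICRF-193 intervals was not run for the same reason, and with the depth unknown a missing interval cannot be read as closed chromatin.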
